A study of Mus musculus with 2 samples.

Results

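The genes described here are 9 pancreatic genes that set how much trypsin an acinar cell can make and restrain: the trypsinogens Prss1, Prss2, Try4, Try5 and Try10, the chymotrypsinogens Ctrb1, Ctrc and Ctrl, and the trypsin inhibitor Spink1. They were found by symbol and are 9 of the 31053 genes in the feature table. Acinar cells store trypsinogens and chymotrypsinogens as inactive precursors in zymogen granules. In the gut, enteropeptidase cuts a short activation peptide from trypsinogen, and the trypsin so formed activates the other zymogens. Trypsin that forms early, inside the pancreas, is a hallmark of pancreatitis. Spink1 is stored in the same granules and blocks trypsin, and chymotrypsins can degrade trypsinogen.

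Both groups were pancreatic cells taken after pancreatitis from mice of the genotype R26[CA]30EYFP on the C57Bl/6J background, and the treatment field reads None for both. In this reporter a CA repeat in the Rosa26 locus keeps EYFP out of frame until the repeat changes in length, in whichever cell type that happens. The fractions were sorted as EYFP positive and EYFP negative cells, with 1 single-cell library each. Both carried the reporter and both followed pancreatitis, so neither is a healthy pancreas. How many animals were pooled, what agent was used and how long after it the cells were taken were not stated in the labels used here. Each group is a lone library without replicates, so no p-value is given, and every interval below covers counting error only.

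The measured values are whole numbers of unique molecular identifiers (UMIs), each of which marks 1 captured transcript, per gene and barcode. Barcodes needed 200 or more detected genes, and no more than 20% of their UMIs from mitochondrial genes, to be kept. This left 860 of 1717 EYFP positive barcodes with 2745342 UMIs and 553 of 745 EYFP negative barcodes with 4857210 UMIs. The EYFP positive barcodes were much shallower, with a median of 1008 UMIs, against 8020 UMIs in the EYFP negative barcodes. The libraries shared 4 barcode sequences, and the 9 genes had 1 UMI in these among EYFP positive and 46 UMIs among EYFP negative barcodes. Clusters were made without any digestive enzyme gene, so the 9 genes did not shape the clusters. Naming also used the leading genes of a cluster among all genes, so the 9 genes could keep a cluster unnamed. A cluster led by zymogen transcripts, described below, was picked out by its leading genes. The reporter is not a feature of the table, and the sort itself could not be checked.

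The 5 trypsinogens are close copies of each other, which limits how far their UMIs can be told apart. Their coding sequences were between 89.6% and 97.4% identical in GENCODE M21, and Try4 and Try5 were the closest pair. Of the 50-base windows along the Try4 transcript, 45.9% also occur letter for letter in Try5. The chymotrypsinogens were only 54.6% to 64.0% identical and shared no such window. The trypsinogen genes lie together on chromosome 6 (GRCm38). The stretch around the activation site is printed because it shows both the common chemistry and the likeness of the copies. Each line gives coding bases 43 to 84 within 1 coding exon, 5′ to 3′, and the capitals mark the codons of the acidic run and the lysine after which enteropeptidase cuts. These capitals are the same in all 5 genes, and outside them Prss1, Try4, Try5 and Try10 each differ from Prss2 at 1 base.
Prss1, chr6:41461183-41461224, plus strand: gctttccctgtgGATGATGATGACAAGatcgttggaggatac
Prss2, chr6:41522819-41522860, plus strand: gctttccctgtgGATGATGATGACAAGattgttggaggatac
Try4, chr6:41303286-41303327, plus strand: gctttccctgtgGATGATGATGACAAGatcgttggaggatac
Try5, chr6:41313465-41313506, minus strand: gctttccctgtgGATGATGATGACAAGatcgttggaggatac
Try10, chr6:41355454-41355495, plus strand: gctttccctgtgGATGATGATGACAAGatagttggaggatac
The same stretch of 2210010C04Rik, the cationic trypsinogen of mice, is longer by 1 acidic codon and runs over coding bases 43 to 87. That gene is not among the 9, and it is 75.6% identical to Prss2 over the coding sequence with no shared 50-base window.
2210010C04Rik, chr6:41034360-41034404, minus strand: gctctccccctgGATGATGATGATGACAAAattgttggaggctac

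Acinar barcodes were marked by Rbpjl, which encodes a subunit of PTF1, the transcription factor complex that drives digestive enzyme genes in acinar cells. At least 1 Rbpjl UMI was found in 95 kept EYFP positive barcodes, with 568 Rbpjl UMIs in all. None of the 553 kept EYFP negative barcodes held one, which is an upper limit of 0.542% for barcodes with a UMI. Of the 95, 55 held at least 2 Rbpjl UMIs and 40 held 1. By cluster, 53 of them fell in an acinar-like cluster of 55 barcodes, 11 in a cluster led by zymogen transcripts, and 31 in clusters of other classes. The acinar-like cluster was named from Rbpjl and other acinar genes that are not digestive enzymes, so its Rbpjl content is no result. Its Rbpjl-positive barcodes also held 24 UMIs of Ptf1a, another PTF1 subunit, and 27 UMIs of Bhlha15, a regulator of secretory cell structure, both of which stand on its marker list.

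The 9 genes made up 3.41% of all UMIs in Rbpjl-positive barcodes and 1.26% of all UMIs in the other EYFP positive barcodes. Their summed level was 34059 counts per 1000000 UMIs (CPM; 95% interval 33495 to 34631) in the 95 Rbpjl-positive barcodes, against 12632 CPM in the 765 others. The ratio was 2.70 (2.64 to 2.75). All 95 Rbpjl-positive barcodes held at least 1 UMI of the 9 genes, and so did 752 of the 765 others. Per barcode, the lowest, median and highest sums were 2, 23 and 5175 UMIs in Rbpjl-positive barcodes, against 0, 8 and 3378 UMIs in the others, so the groups overlapped over nearly their whole range. Median depth differed too, at 2171 UMIs in Rbpjl-positive barcodes and 955 UMIs in the others. In barcodes thinned to 500 UMIs each, the ratio was 1.76.

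A few barcodes decided this ratio. It was 1.79 without the Rbpjl-positive barcode with the most UMIs of the 9 genes, which held 5175 of the 13885, 1.37 (1.31 to 1.44) without the cluster led by zymogen transcripts, and 1.05 (1.004 to 1.104) for the 53 Rbpjl-positive barcodes of the acinar-like cluster alone. It was 4.53 with at least 2 Rbpjl UMIs required, 4.43 with a filter of 500 genes and 10% mitochondrial UMIs, 1.67 over every deposited barcode and 1.78 as a mean over barcodes. Barcodes poor in the 9 genes weighed on the pooled level too. The 31 Rbpjl-positive barcodes outside both clusters held 213425 of the group's 407670 UMIs. Only 381 of the 13885 UMIs of the 9 genes were in them, at 1785 CPM. Among them, 1 ductal-like barcode held 90166 UMIs, of which 4 were from the 9 genes.

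A gene was called higher or lower where both groups together held at least 10 UMIs and the fold was at least 2. Of all 11858 genes with that many UMIs, 13.3% were called higher in Rbpjl-positive barcodes. Of the 9 genes, 8 could be tested in this sense, 7 were called higher and none lower, against 13.2% of all genes called lower. The median log2 fold was 1.50 over these 8 and -0.01 over all genes tested. With at least 2 Rbpjl UMIs required, all 8 were called higher and none lower, against 15.7% and 28.2% of all genes, and the median log2 fold was 2.26 over the 8, against -0.63 over all.

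These calls rested in part on single barcodes and on the zymogen-led cluster. Without the barcode with 5175 UMIs of the 9 genes, 4 of the 8 were called higher and none lower, against 14.7% and 11.6% of all genes, and Try5, Try10, Ctrc and Ctrl were those 4. Ctrb1 then had a ratio of 1.72 (1.66 to 1.79), Prss2 1.77 (1.68 to 1.87) and Spink1 1.56 (1.27 to 1.90). In the 53 Rbpjl-positive barcodes of the acinar-like cluster alone, 3 of the 8 were called higher and none lower, against 19.8% and 22.9% of all genes. The 3 were Ctrc, with a ratio of 118 (79.0 to 182), Try10 with 3.81 (1.92 to 7.04) and Ctrl with 2.60 (2.32 to 2.90). The other 5 had ratios below 1, so their direction turned: Prss2 0.849 (0.751 to 0.955), Try4 0.584 (0.503 to 0.676), Try5 0.843 (0.70005 to 1.01), Ctrb1 0.837 (0.771 to 0.907) and Spink1 0.588 (0.340 to 0.951). The median log2 fold over the 8 was -0.24 there, against -0.41 over all genes tested.

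Among the 5 trypsinogens, Prss2, the anionic trypsinogen, was the most abundant. It stood at 5870 CPM in Rbpjl-positive barcodes and at 2477 CPM in the others, a ratio of 2.37 (2.26 to 2.49). Its lowest, median and highest counts per barcode were 0, 2 and 705 in Rbpjl-positive barcodes, against 0, 2 and 682 in the others. The 2 medians are equal, so the sums differ through the upper end of the counts. Try4 stood at 4482 CPM in Rbpjl-positive barcodes and 2353 CPM in the others, and its ratio of 1.91 (1.81 to 2.01) was the only one among the 8 below the fold of 2. Try5 had the highest ratio of the 3 abundant trypsinogens, 3.04 (2.85 to 3.25), from 3363 CPM in Rbpjl-positive barcodes against 1105 CPM in the others. Try10 was rare, with 27 UMIs in Rbpjl-positive barcodes and 58 UMIs in the others, a ratio of 2.67 (1.63 to 4.28). Prss1 was almost absent, with 1 UMI in Rbpjl-positive and 0 UMIs in the other kept barcodes, and 1 further UMI among all barcodes of both libraries.

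Because of the shared stretches, the split among Prss2, Try4, Try5 and Try10 is uncertain, while their sum is less so. Of 6 further trypsinogen-like genes, 2 had enough UMIs, and 2210010C04Rik was the abundant one. It stood at 6486 CPM in Rbpjl-positive barcodes, above Prss2, and at 2085 CPM in the others, a ratio of 3.11 (2.97 to 3.26), or 1.94 (1.83 to 2.05) without the barcode richest in the 9 genes. Prss3 had 4 UMIs in Rbpjl-positive barcodes and 17 UMIs in the others, a ratio of 1.35 (0.330 to 4.14). Gm10334 had 4 and 4 UMIs, and Gm5771 had 1 and 5 UMIs, in Rbpjl-positive and other barcodes.

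Ctrb1, chymotrypsinogen B, was the most abundant of the 9 genes in both groups. It stood at 16003 CPM in Rbpjl-positive barcodes and at 5397 CPM in the others, a ratio of 2.97 (2.88 to 3.06). Per barcode it had a lowest, median and highest count of 0, 9 and 2952 UMIs in Rbpjl-positive barcodes, against 0, 3 and 1387 UMIs in the others. At least 1 Ctrb1 UMI was found in 92 of 95 Rbpjl-positive barcodes (96.8%) and in 697 of 765 others (91.1%). A Ctrb1 UMI therefore separated the groups poorly in this library. Ctrl, the chymotrypsin-like protease precursor, stood at 3177 CPM in Rbpjl-positive barcodes and 1053 CPM in the others, a ratio of 3.02 (2.82 to 3.23). Ctrb1 overlaps the microRNA gene Mir7076 on the same strand.

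Ctrc had by far the highest ratio of the 8 genes. Chymotrypsin C degrades trypsinogen in humans, while RefSeq lists mouse Ctrc as a transcribed pseudogene and GENCODE as protein coding. It stood at 569 CPM (498 to 647) in Rbpjl-positive barcodes, from 232 UMIs, and at 11.98 CPM (7.96 to 17.3) in the others, from 28 UMIs. The ratio was 47.5 (32.0 to 73.1), and with at least 2 Rbpjl UMIs required it was 104 (69.8 to 160). A Ctrc UMI was found in 50 of 95 Rbpjl-positive barcodes (52.6%, 42.1% to 63.0%) and in 25 of 765 others (3.27%, 2.13% to 4.79%). In EYFP positive T-like cells, which do not make zymogens and were deeper, with a median of 7243 UMIs, 1 of 73 held a Ctrc UMI (1.37%). After thinning every barcode to 500 UMIs, the shares were 25.3% of Rbpjl-positive barcodes, 1.31% of the others and 0 of 73 T-like cells, which allows a share of up to 4.11%.

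The Ctrc count has a limit of annotation. The gene spans chr4:141814962-141846359 on the minus strand (GRCm38) and overlaps Cela2a on the same strand and Casp9 and Ctrcos on the other. Of its 5 GENCODE transcripts, 1 shares 3 of its 7 exons with Cela2a, the gene of elastase 2A. Cela2a itself stood at 4813 CPM in Rbpjl-positive barcodes and 2520 CPM in the others, a ratio of 1.91 (1.81 to 2.01), so its distribution was not that of Ctrc. How reads of the shared exons were counted was not tested.

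Spink1, the trypsin inhibitor on chromosome 18, stood at 527 CPM (459 to 603) in Rbpjl-positive barcodes, from 215 UMIs, and at 210 CPM (192 to 230) in the others, from 492 UMIs. The ratio was 2.51 (2.13 to 2.95). A Spink1 UMI was found in 30 of 95 Rbpjl-positive barcodes (31.6%), in 177 of 765 others (23.1%) and in 2 of 73 EYFP positive T-like cells (2.74%). Its highest count per barcode was 89 in Rbpjl-positive barcodes and 54 in the others, with a median of 0 in both. There were 26.1 trypsinogen UMIs for each Spink1 UMI in Rbpjl-positive barcodes and 28.3 in the others.

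**Figure D1:**
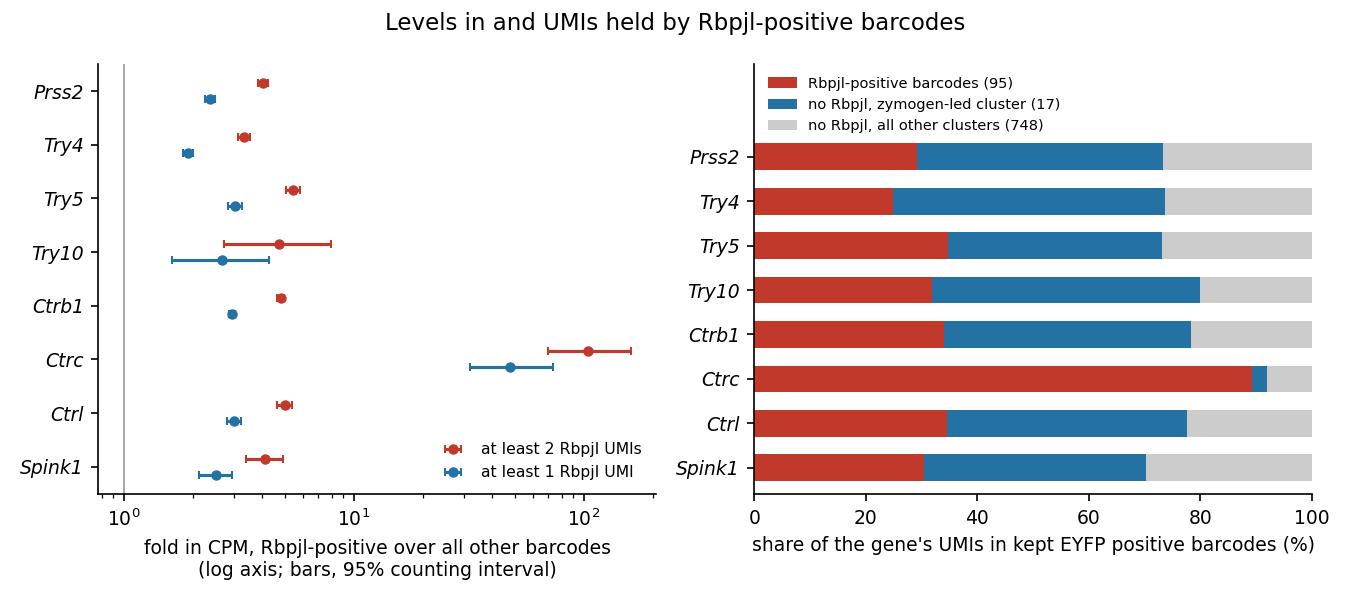
The left panel plots, for each of the 8 genes with at least 10 UMIs, the fold in CPM of Rbpjl-positive over all other kept EYFP positive barcodes on a log axis, with 95% counting intervals, for at least 2 (red) and at least 1 (blue) Rbpjl UMI. The right panel shows where each gene's UMIs lay: 89.2% of the Ctrc UMIs were in Rbpjl-positive barcodes, while the other 7 genes had between 24.9% and 34.7% there.

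Most zymogen UMIs of the EYFP positive library lay outside Rbpjl-positive barcodes. The 95 barcodes held 14.8% of all UMIs, 29.2% of the Prss2 UMIs (28.3% to 30.2%), 24.9% of Try4, 34.7% of Try5, 34.1% of Ctrb1, 34.5% of Ctrl and 30.4% of Spink1. They held 89.2% of the Ctrc UMIs (84.8% to 92.7%), 232 of 260. Among 23 other digestive enzyme and trypsinogen-like genes with at least 50 UMIs, this share ran from 10.0% to 62.3% with a median of 39.7%, and none reached that of Ctrc. The gene at the top of that range was Dmbt1, at 62.3%, and the rarer Cela3a, below that count, had 13 of 15 UMIs there. Dmbt1 and Cela3a were picked out after their values were seen.

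The 17 barcodes of the zymogen-led cluster without Rbpjl held 19092 UMIs of the 9 genes, more than the 13885 of all 95 Rbpjl-positive barcodes together. They held 44.1% of the Prss2 UMIs, 48.6% of Try4, 44.2% of Ctrb1, 43.0% of Ctrl and 39.7% of Spink1, but 2.69% of the Ctrc UMIs, 7 of 260. This cluster and the acinar-like cluster were examined separately after these values were seen.

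Barcodes of the acinar-like and of the zymogen-led cluster are set side by side here as 2 forms. The 53 Rbpjl-positive barcodes of the acinar-like cluster held 1828 UMIs of the 9 genes. Their level of 13297 CPM was close to the 12632 CPM of all kept barcodes without Rbpjl. It was below the 21624 CPM of 148 barcodes without Rbpjl in unnamed cluster 0, whose median depth was 713.5 UMIs. In the 53 barcodes the 9 genes made up 0.506%, 1.13% and 3.73% of a barcode's UMIs (lowest, median and highest), and the median barcode had 820 genes. The 28 barcodes of the zymogen-led cluster were far richer. That cluster was picked because Ctrb1 led its genes, so its richness in the 9 genes is no result. In its 11 Rbpjl-positive barcodes the 9 genes made up 14.1%, 16.9% and 35.0% of a barcode's UMIs, at 205654 CPM and with a median of 803 genes. In its 17 barcodes without Rbpjl they made up 13.1%, 26.9% and 41.8%, at 294357 CPM and with a median of 276 genes. No Rbpjl-positive barcode of the acinar-like cluster reached the range of the zymogen-led cluster. In all, 36 EYFP positive barcodes, 11 with and 25 without Rbpjl, had at least 10% of their UMIs from the 9 genes, and together they held 73.1% of these UMIs in the library. The 25 are more than the 17 of the zymogen-led cluster without Rbpjl, so some rich barcodes lay outside both forms.

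Nupr1, a stress gene, had 1547 UMIs in the acinar-like barcodes, 134 in the 11 and 69 in the 17 zymogen-led ones, or 11253, 2360 and 1064 CPM. Nupr1 led the genes of the acinar-like cluster and was not left out of the clustering, so its high level there is no result. The 13 ductal or metaplastic markers together stood at 975, 7380 and 6167 CPM in these 3 sets, with 5, 4 and 8 markers at 0 UMIs. Tff2 made up most of that sum in the zymogen-led barcodes, with 327 of 419 UMIs in the 11 and 346 of 400 in the 17, against 29 of 134 in the acinar-like barcodes. Without Tff2 the list stood at 764, 1620 and 833 CPM. Cftr, Mmp7 and Onecut2 were at 0 in all 3 sets. Krt19, Krt7, Sox9 and Epcam were at 0 in the 17, and Sox9 had 27 UMIs in the acinar-like barcodes, 2 in the 11 and 0 in the 17. The median mitochondrial share was 6.63% in the acinar-like barcodes, 3.66% in the 11 and 1.11% in the 17. Whether the 28 barcodes were whole cells, parts of cells or droplets with free RNA was not tested.

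**Figure D2:**
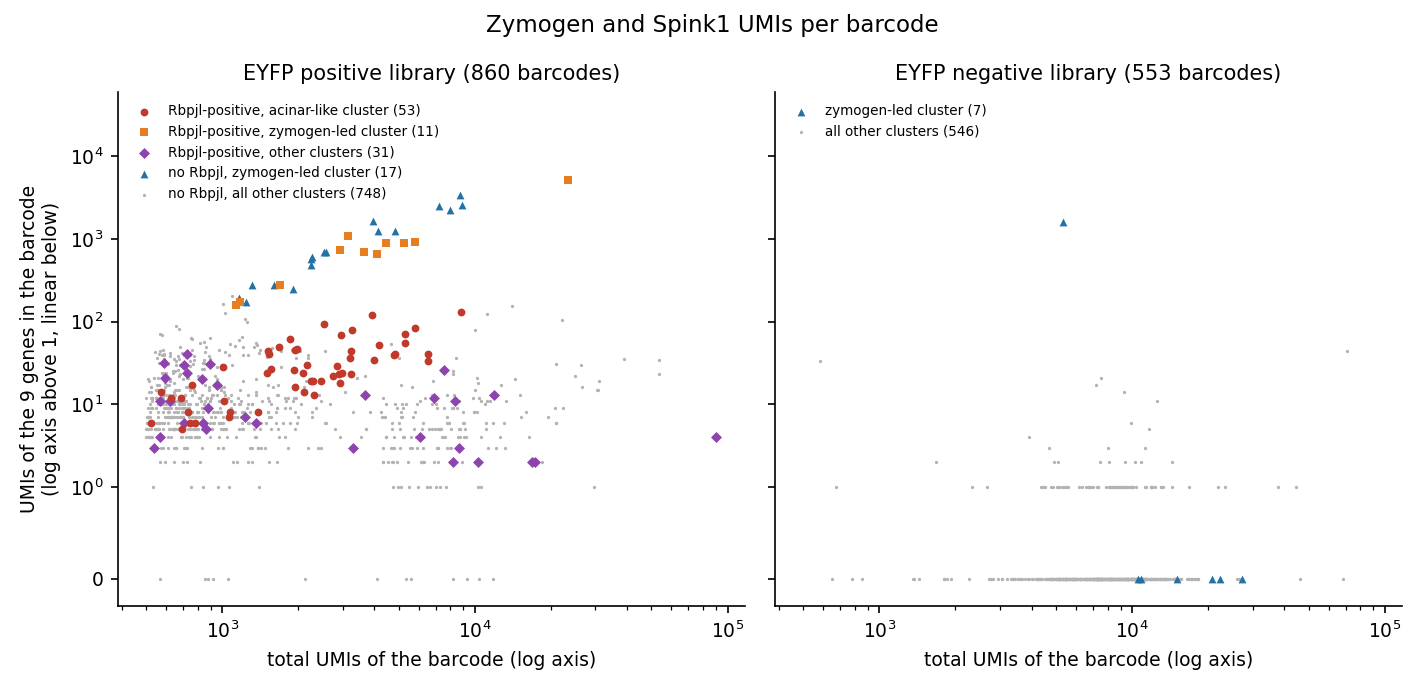
Each point is a kept barcode, placed by its total UMIs (log axis) and its UMIs of the 9 genes (log axis above 1, linear below), with the EYFP positive library on the left and the EYFP negative library on the right. The zymogen-led barcodes (squares and triangles) run above the acinar-like ones (circles) at the same depth, and in the EYFP negative library a lone barcode with 1587 of these UMIs stands apart from the rest.

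The mix of the 9 genes differed between the 2 forms. In the acinar-like cluster's Rbpjl-positive barcodes, Ctrc made up 10.6% (9.24% to 12.1%) of the UMIs of the 9 genes, 194 of 1828. In the zymogen-led cluster it made up 0.300% of the 11676 UMIs in Rbpjl-positive barcodes and 0.0367% of the 19092 UMIs in the others. Ctrl made up 20.6% in the acinar-like barcodes, against 7.55% and 8.47% in the zymogen-led barcodes with and without Rbpjl. Ctrb1 made up 34.0% in the acinar-like barcodes, against 49.2% and 44.3%. As levels, Ctrc stood at 1411 CPM in the acinar-like barcodes and at 616 and 108 CPM in the zymogen-led ones. Prss2, Try4, Try5, Ctrb1, Ctrl and Spink1 were lowest in the acinar-like barcodes. The zymogen-led cluster was picked because Ctrb1 led its genes, so its higher levels of these genes and its Ctrb1 share are no result.

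Trypsinogens together made up 33.9% (31.7% to 36.1%) of the UMIs of the 9 genes in the acinar-like barcodes, 41.3% in the Rbpjl-positive and 45.8% in the other zymogen-led barcodes, and 49.8% in all other EYFP positive barcodes. Spink1 made up 0.930% (0.543% to 1.48%) in the acinar-like barcodes, 17 of 1828, against 1.64% and 1.47% in the zymogen-led barcodes with and without Rbpjl and 2.02% in all others. That leaves 36.5 trypsinogen UMIs per Spink1 UMI in the acinar-like barcodes, 25.2 and 31.1 in the zymogen-led ones and 24.6 in all others. These counts again leave out 2210010C04Rik. Over all 95 Rbpjl-positive barcodes the trypsinogen share was 40.5% and the Spink1 share 1.55%, values that mix both forms. Without the barcode with 5175 of these UMIs they were 44.3% and 1.45%.

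**Figure D3:**
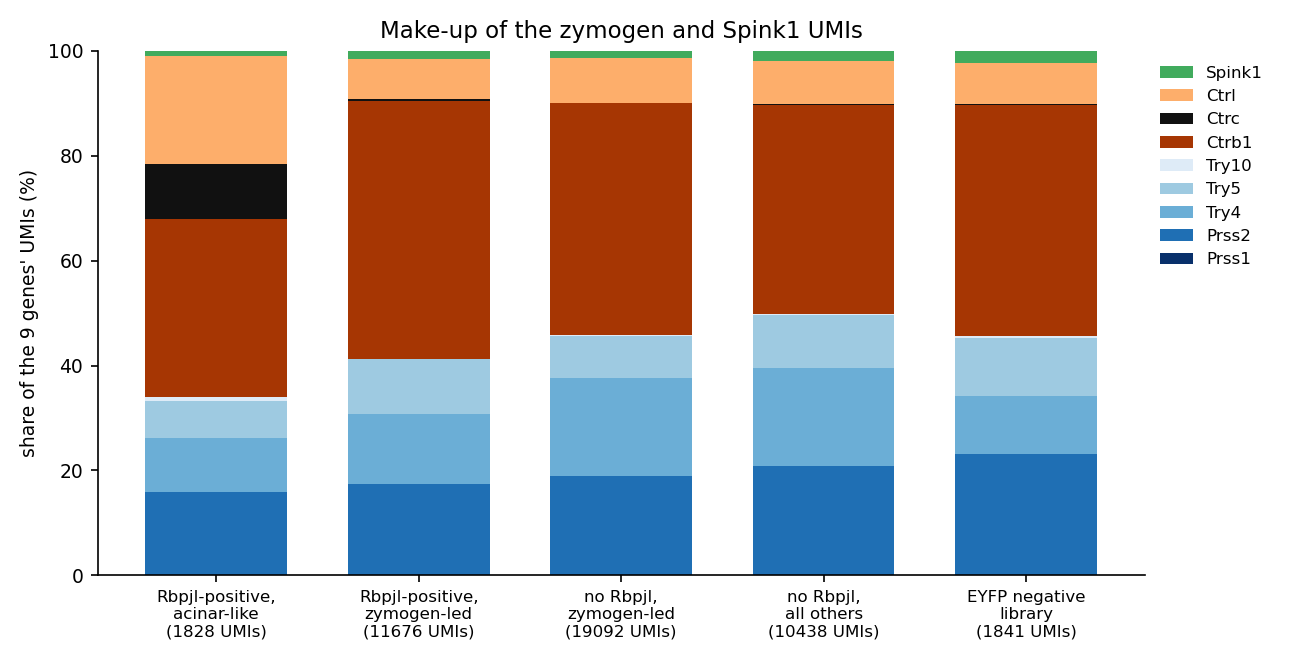
Each bar splits the UMIs of the 9 genes in a set of barcodes into the share of each gene, with the number of UMIs under the bar. Ctrc (black) makes up 10.6% in the Rbpjl-positive barcodes of the acinar-like cluster and at most 0.300% in the 4 other bars, and Prss1 is too rare to be seen.

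Zymogen UMIs were present in every named class of the EYFP positive library, including those that do not make zymogens. In droplet data, RNA free in the cell suspension gives UMIs of genes that a cell does not express, and the values in those classes are given as that level. In barcodes without Rbpjl, the summed level was 720 CPM (651 to 794) in 73 T-like cells, 2454 CPM in 114 B-like cells, 1541 CPM in 24 macrophage-like cells, 4079 CPM in 52 endothelial-like cells and 5390 CPM in 60 fibroblast-like cells. It was 21637 CPM in 186 ductal-like barcodes of low depth and 1500 CPM in 27 ductal-like barcodes of high depth. Ctrb1, Clps, Cela2a and Prss2 stood among the leading genes of the low-depth ductal-like cluster.

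Counted per barcode, the same classes were close to each other. The median barcode held 5 UMIs of the 9 genes among T-like cells, 6 among B-like, 6 among macrophage-like, 8.5 among endothelial-like and 10.5 among fibroblast-like cells. It held 9.5 in the ductal-like barcodes of low depth and 15 in those of high depth, whose median depths were 764 and 14377 UMIs. Across the classes a level in CPM therefore moved with depth more than with the number of zymogen UMIs in a droplet. The Rbpjl-positive barcodes of the acinar-like cluster had a median of 26 UMIs, and the 31 Rbpjl-positive barcodes of other classes had a median of 9 UMIs, within the range of the classes without Rbpjl.

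**Figure D4:**
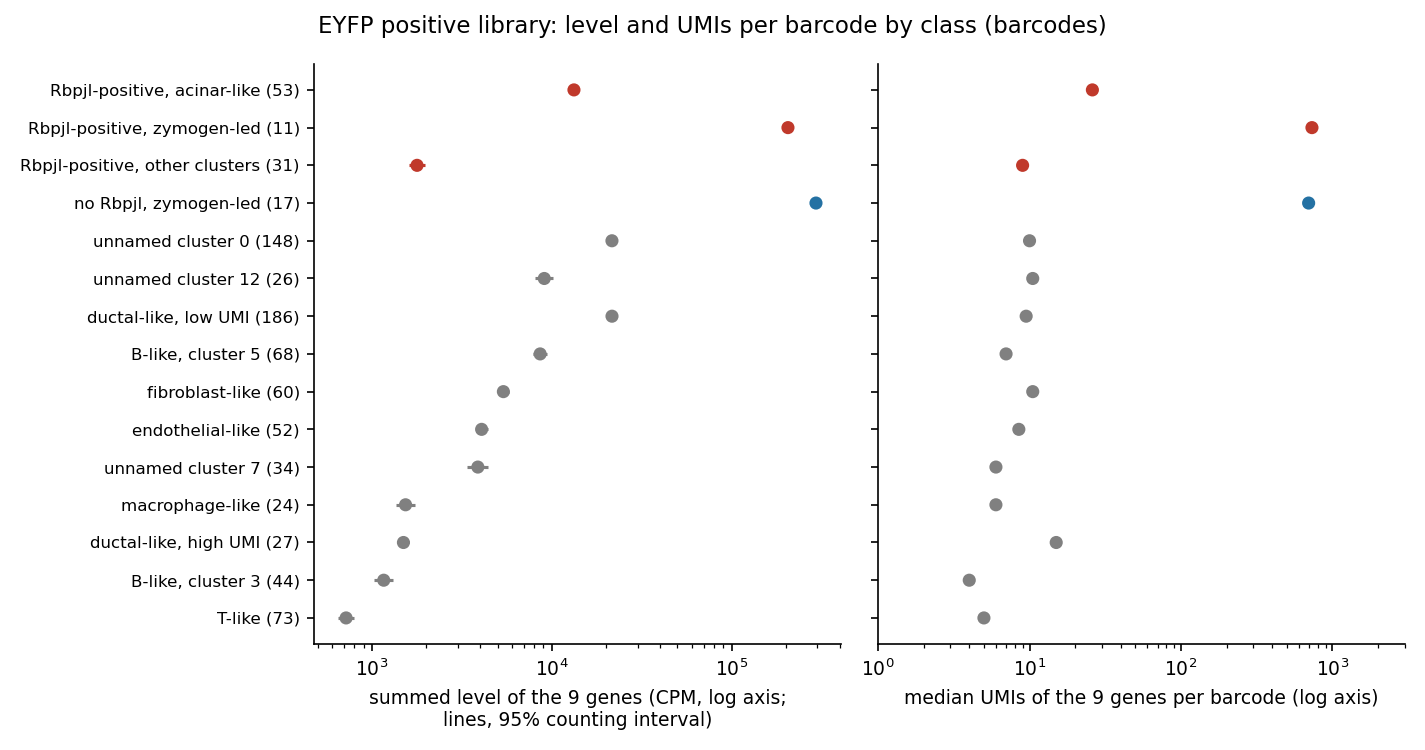
For classes of kept EYFP positive barcodes (number of barcodes in brackets), the left panel gives the summed level of the 9 genes in CPM with 95% counting intervals and the right panel the median UMIs per barcode, both on log axes. Levels of the classes without Rbpjl outside the zymogen-led cluster (grey) run from 720 to 21637 CPM, while their medians stay between 4 and 15 UMIs per barcode.

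The mix of the 9 genes in these classes is given beside both forms, for genes picked after their values were seen. Try4 made up 18.6% of the UMIs of the 9 genes in T-like, 18.4% in B-like, 18.8% in endothelial-like and 19.2% in fibroblast-like cells, against 18.7% in the zymogen-led barcodes without Rbpjl and 10.3% in the acinar-like ones. Ctrl made up 8.91%, 8.12%, 8.58% and 6.39% in these classes. Against these values, the zymogen-led barcodes without Rbpjl had 8.47% and the acinar-like ones 20.6%. Ctrb1 made up 41.1% in T-like, 37.9% in B-like, 38.5% in endothelial-like and 40.1% in fibroblast-like cells, against 44.3% in the zymogen-led barcodes without Rbpjl and 34.0% in the acinar-like ones. Spink1 made up 0.495% in T-like cells, 2 of 404 UMIs, and 2.79% in B-like cells, 22 of 788. Ctrc had 1 UMI among 404 in T-like, 1 among 788 in B-like, 2 among 676 in endothelial-like and 3 among 704 in fibroblast-like cells. Trypsinogens made up between 46.8% and 58.4% of these UMIs in every EYFP positive class without Rbpjl of at least 20 barcodes. In the 17 zymogen-led barcodes without Rbpjl they made up 45.8%.

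The EYFP negative library held far fewer of these UMIs. The 9 genes made up 1.58% of the kept UMIs in EYFP positive and 0.0379% in EYFP negative barcodes, 43415 and 1841 UMIs. Of the 1841, 1587 (86.2%) were in 1 barcode, which had 530 genes and no Rbpjl UMI and fell in the zymogen-led cluster. The 9 genes made up 29.9% of its UMIs. The 6 other EYFP negative barcodes of that cluster held no UMI of the 9 genes, and hemoglobin made up 59.1% to 95.5% of their UMIs, so in this library the cluster is not a set of zymogen-rich barcodes.

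T-like and B-like cells were found in both libraries and give the free RNA level of each. In T-like cells the summed level was 720 CPM in the EYFP positive and 27.4 CPM (22.1 to 33.5) in the EYFP negative library, from 404 and 93 UMIs, a ratio of 26.3 (20.9 to 33.3). Of EYFP positive T-like cells 70 of 73 held such a UMI, and of EYFP negative T-like cells 60 of 381. Their median depths, 7243 and 8625 UMIs, were close, and after thinning every cell to 500 UMIs the ratio was 66.1 (21.0 to 335). The EYFP positive T-like cells came mostly from cluster 4 and the EYFP negative ones from clusters 15, 16 and 17. In B-like cells the level was 2454 CPM in the EYFP positive and 30.3 CPM in the EYFP negative library, a ratio of 81.0 (54.9 to 125). Here the median depths differed, at 1341.5 UMIs in EYFP positive and 5630 UMIs in EYFP negative B-like cells, so the ratio of 81.0 mixes depth with the free RNA level. The EYFP positive B-like cells came mostly from clusters 3 and 5, at 1166 and 8627 CPM and with median depths of 5000.5 and 691 UMIs. The EYFP negative ones came from cluster 13.

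Gene by gene, 5 of the 9 had enough UMIs in T-like cells and all 5 were called higher in the EYFP positive library and none lower, against 5.15% and 8.42% of all 9819 genes. Prss2 stood at 160 CPM in EYFP positive and 6.18 CPM in EYFP negative T-like cells, a ratio of 26.0 (16.0 to 43.9). Ctrb1 stood at 296 and 11.8 CPM in EYFP positive and EYFP negative T-like cells, a ratio of 25.1 (17.7 to 36.4). The median log2 fold was 4.67 over the 5 and -0.04 over all. In B-like cells 6 of 6 were called higher and none lower, against 4.71% and 11.9% of all 7645 genes, with a median log2 fold of 6.40 over the 6 and -0.09 over all. The lower depth of the EYFP positive B-like cells enters these folds too. Spink1 had 22 UMIs in EYFP positive B-like cells and 0 UMIs in EYFP negative ones, at least 19.6-fold higher against a floor of 3 UMIs over the group.

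**Figure D5:**
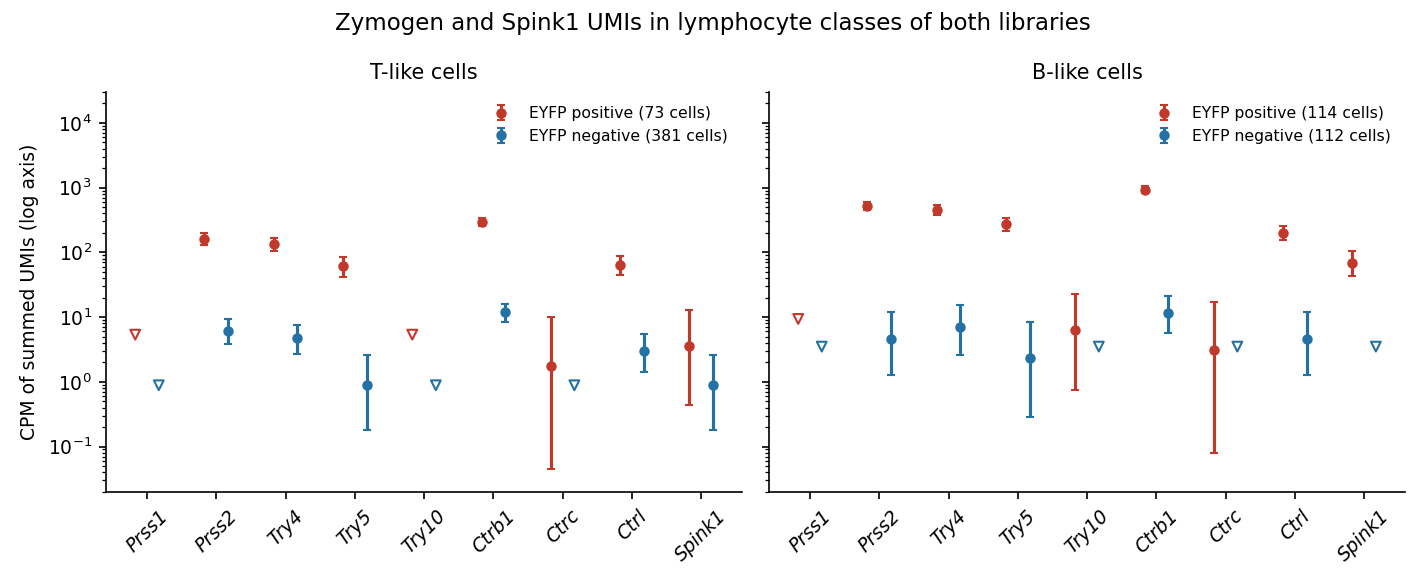
Points give the CPM of each gene in T-like (left) and B-like (right) cells of the EYFP positive (red) and EYFP negative (blue) library on a log axis, with 95% counting intervals. Open triangles stand at the level of 3 UMIs for a gene with none. Ctrb1 is at 296 CPM in EYFP positive and 11.8 CPM in EYFP negative T-like cells.

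Of 15 genes on a list of activation and degradation of trypsin, 7 had enough UMIs, 2 were called higher and 1 lower in Rbpjl-positive barcodes, against 13.3% and 13.2% of all genes. Their median log2 fold was -0.05, against -0.01 over all. With at least 2 Rbpjl UMIs required, 2 were called higher and 4 lower, against 15.7% and 28.2% of all genes, and their median log2 fold was -1.62, against -0.63 over all. The lysosomal protease Ctsb, which can activate trypsinogen, stood at 196 CPM in Rbpjl-positive barcodes and 320 CPM in the others, a ratio of 0.613 (0.481 to 0.773), or 0.315 (0.185 to 0.501) with at least 2 Rbpjl UMIs. Ctsd, which can activate Ctsb, was called lower, at 101 CPM in Rbpjl-positive barcodes and 280 CPM in the others, a ratio of 0.359 (0.256 to 0.493), or 0.380 (0.227 to 0.598) with at least 2 Rbpjl UMIs. Ctsl, which degrades trypsinogen, stood at 191 and 146 CPM in Rbpjl-positive and other barcodes, a ratio of 1.31 (1.01 to 1.68). Of its 78 UMIs there, 27 were in 1 barcode, without which the ratio was 1.098 (0.801 to 1.48), and with at least 2 Rbpjl UMIs the direction turned, at 0.306 (0.131 to 0.609). Cst3, an inhibitor of Ctsb and Ctsl, stood at 471 CPM in Rbpjl-positive barcodes and 710 CPM in the others, a ratio of 0.663 (0.568 to 0.771). It was 0.459 (0.381 to 0.549) without the barcode with 63 of its 192 UMIs and 0.205 (0.133 to 0.301) with at least 2 Rbpjl UMIs.

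The 2 genes of that list called higher were Cckar, the receptor through which cholecystokinin triggers secretion, and Gp2, a zymogen granule membrane protein, both named after their values were seen. Cckar stood at 93.2 CPM in Rbpjl-positive barcodes and 5.56 CPM in the others, a ratio of 16.8 (8.73 to 34.3), and Gp2 at 520 and 77.9 CPM, a ratio of 6.68 (5.45 to 8.19). For Gp2, 151 of 212 UMIs lay in the barcode that was also richest in the 9 genes, and without it the ratio was 2.04 (1.50 to 2.74). In the acinar-like cluster's Rbpjl-positive barcodes alone Gp2 had 8 UMIs and a ratio of 0.747 (0.318 to 1.50), so its direction turned, while Cckar had 24 UMIs and a ratio of 31.4 (15.4 to 67.1). Enteropeptidase (Tmprss15), A2m and the 5 Serpina1 genes had no UMI in either group.

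Of 28 other digestive enzyme and secretory genes, 25 had enough UMIs. Of these, 23 were called higher and none lower, against 13.3% and 13.2% of all genes. Their median log2 fold was 1.97, against -0.01 over all. In the Rbpjl-positive barcodes of the acinar-like cluster alone 24 had enough UMIs. There 14 were called higher and none lower, against 19.8% and 22.9% of all genes. The median was 1.19 there, against -0.41 over all. The elastase Cela1 had a ratio of 4.77 (4.57 to 4.98) and pancreatic lipase (Pnlip) 4.21 (4.03 to 4.41), both above Prss2, while colipase (Clps) had 2.73 (2.61 to 2.85). Without the barcode richest in the 9 genes these ratios were 3.30, 2.32 and 1.79, and in the acinar-like barcodes alone 4.24, 1.91 and 0.899, where that of Clps was below 1. Of 8 acinar transcription factors, 6 had enough UMIs. Of these, 3 were called higher and none lower, against the same 13.3% and 13.2% of all genes. Among the 3 was Rbpjl, which set the groups. The rest were Bhlha15, with 30 UMIs in Rbpjl-positive barcodes against 2 UMIs in the others, and Ptf1a, with 26 against 5 UMIs. Tcf3 had a ratio of 1.99 (1.20 to 3.21), or 1.71 (0.925 to 2.97) without the barcode with 8 of its 24 UMIs. Nr5a2 had a ratio of 1.47 (0.963 to 2.18), or 0.942 (0.523 to 1.59) without the barcode with 16 of its 32 UMIs. Gata6 had a ratio of 1.00 (0.662 to 1.48), but 29 of its 31 UMIs in Rbpjl-positive barcodes lay in 1 barcode. This barcode also held the most UMIs of Tcf3 and Nr5a2 in that group. Without that barcode the ratio was 0.0832 (0.009997 to 0.305), and with at least 2 Rbpjl UMIs Gata6 had 0 UMIs, against 177 UMIs in the others, at least 4.51-fold lower against a floor of 3 UMIs.

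The pattern across cell groups was compared over 13 groups of class and library with at least 20 cells, by Pearson's r of log2(CPM + 1) with the summed level, for 9793 genes. The 8 genes outside the 9 with the highest r were Sycn (0.998), Cela2a, Cela3b, 2210010C04Rik, Clps, Zg16, Reg1 and Pnlip (0.990), and all 8 are digestive enzyme or secretory genes. Of the members, Prss2 and Ctrb1 had an r of 0.999, Try5 and Try4 0.997, Ctrl 0.989 and Spink1 0.980, and each is a part of the sum. Try10 had 0.873 and Ctrc 0.682, the lowest of those ranked, and Rbpjl had 0.630. The groups share their libraries and differ in depth, so these values describe the pattern only.

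Upstream sequences are shown because Rbpjl acts through PTF1, whose site joins an E-box and a TC-box. The RefSeq promoter table (GRCm38.p6) held 5 of the 9 genes, and Try5, Try10, Ctrc and Spink1 were not matched. The 250 bases before the transcript start were searched on both strands for the E-box letters CACCTG and the TC-box letters TTTCCC. Only these exact letters were counted, so an E-box or TC-box spelled with other letters would be missed, also in the sequences printed here. Of 32851 promoters in the table, 17.2% held the first, 21.9% the second and 3.61% both. Prss1 and Prss2 held both, Try4 and Ctrl the E-box letters alone, and Ctrb1 the TC-box letters alone. Prss1, which had almost no UMI, and Try4, a near copy with 7327 kept EYFP positive UMIs, are printed with Ctrb1, the most abundant of the 9, each 5′ to 3′ on the gene's strand with matches in capitals.
Prss1, chr6:41458680-41458929, plus strand: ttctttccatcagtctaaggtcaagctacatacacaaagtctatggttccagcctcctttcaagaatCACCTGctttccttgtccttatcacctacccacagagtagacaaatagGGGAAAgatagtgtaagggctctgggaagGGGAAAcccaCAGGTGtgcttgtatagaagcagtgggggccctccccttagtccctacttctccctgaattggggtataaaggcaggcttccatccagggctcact
Try4, chr6:41302022-41302271, plus strand: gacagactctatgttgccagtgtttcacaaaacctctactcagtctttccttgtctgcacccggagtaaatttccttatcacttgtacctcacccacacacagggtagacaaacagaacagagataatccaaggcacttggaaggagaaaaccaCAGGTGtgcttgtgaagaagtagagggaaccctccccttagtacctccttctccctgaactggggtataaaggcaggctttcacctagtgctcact
Ctrb1, chr8:111691011-111691260, minus strand: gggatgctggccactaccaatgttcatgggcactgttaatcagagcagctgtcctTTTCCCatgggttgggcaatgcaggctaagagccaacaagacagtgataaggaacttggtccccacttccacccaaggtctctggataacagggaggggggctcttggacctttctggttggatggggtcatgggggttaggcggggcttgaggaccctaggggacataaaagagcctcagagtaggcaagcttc
The nearest E-box and TC-box matches started 10 bases apart in Prss1 and 59 bases apart in Prss2. These matches describe exact letters in a window, for 5 of the 9 genes. Whether PTF1 sites go with the UMI counts of these genes was not tested.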

How the data were processed

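Single-cell RNA was measured in 1 EYFP positive and 1 EYFP negative library. The authors deposited UMI counts as whole numbers, and nothing in the values points to a normalization. Cell Ranger 2.1.0 and the build GRCh38 are named in the submitters' processing notes, whereas software version 3.1.0 and mouse gene identifiers stand in the files, per the file headers. The build used for mapping is therefore not taken as known, and coordinates are those of the same gene identifier in GENCODE M21 (GRCm38). The kit is labelled as a 5′ kit, version 1.1, and which transcript end was read was not tested. UMIs mark transcript ends, so counts were not divided by gene length.

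Barcodes with 200 or more genes and no more than 20% mitochondrial UMIs were kept. Clustering used scanpy 1.11.5 (Python 3.11.15) on both libraries at once, leaving out the 9 genes, other digestive enzyme genes and trypsinogen-like genes. Genes found in at least 3 cells, counts scaled to 10000 per cell, 2000 variable genes, 30 principal components, 15 neighbours and Leiden resolution 1.0 were used. Clusters were named X-like from marker lists, scored by the mean log difference from all other cells. A name needed a score of at least 0.5, a next-best score of at most 0.5 times it, and at least 3 markers found. It also needed more markers of its own list than of any other among the 10 leading genes, taken from all genes. Clusters that failed any of these rules stayed unnamed. Doublets were kept, and Scrublet marked 2 EYFP positive and 5 EYFP negative barcodes, whose removal was an alternative.

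UMIs were summed per group and divided by the group's total (CPM), with exact Poisson 95% intervals. Ratios carry exact conditional binomial and shares exact Clopper-Pearson 95% intervals. A fold against 0 was taken against a floor of 3 UMIs over the group, and none is given where both groups held at most 3. Log2 folds in medians used a pseudocount of 0.5 UMI. No test was run across libraries. Named genes were the 9 members, up to 4 genes with the most UMIs of each list and the 8 genes most like the summed level. The members, lists and markers were chosen with earlier results of these data known. The calculations were checked on simulated data. Coding identity was computed with Biopython 1.88.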

Additional observations from a re-analysis of the deposited data

Results flagged for a closer look

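The barcodes that the filter left out of the EYFP positive library carried the 9 genes at a higher level than the kept barcodes without Rbpjl, which stood at 12632 CPM. In the 857 left out, the summed level was 28507 CPM, against 4241 CPM in the 192 barcodes left out of the EYFP negative library, and this difference between data outside the main comparison drew attention. Of the 857, 758 had fewer than 200 genes and stood at 30051 CPM, and the 99 left out for their mitochondrial share stood at 21877 CPM. Trypsinogens made up 47.2% of the UMIs of the 9 genes in these 857 and 47.2% in the kept barcodes without Rbpjl, and Ctrc made up 0.259% in the 857 and 0.0948% in the kept ones. Of them, 59 held an Rbpjl UMI, at 18054 CPM and with Ctrc at 1.69%. A left-out EYFP negative barcode held the only Rbpjl UMI of that library, with 293 UMIs of the 9 genes among 1080.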

How the results depend on the processing

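No paired analysis was possible because each group was 1 library, and no replicate could be left out. The shares below have no direction to change. Neither summed ratio changed direction under the alternatives run. Single genes did: with at least 2 Rbpjl UMIs Ctsl (0.306) and Gata6 (no UMI) turned lower, and in the acinar-like Rbpjl-positive barcodes alone, an alternative added after the data were seen, Prss2, Try4, Try5, Ctrb1 and Spink1 had ratios below 1. Without the richest barcode, also added for single genes, 4 rather than 7 of the 8 tested genes were called higher. The level in Rbpjl-positive over other barcodes was 2.70, and it was 1.67 with every deposited barcode, 4.43 with a stricter filter of 500 genes and 10% mitochondrial UMIs, 4.53 with at least 2 Rbpjl UMIs, 1.78 as a mean over barcodes, 1.76 after thinning to 500 UMIs, 1.79 without the barcode with the most of these UMIs in each library and 2.75 with further trypsinogen-like genes. With alternatives added after the data were seen it was 1.37 without the zymogen-led cluster and 1.05 for the acinar-like Rbpjl-positive barcodes alone. The T-like ratio of 26.3 was 20.1 with the stricter filter, 33.7 as a mean over cells, 66.1 after thinning and 36.1 at clustering resolution 2.0, and resolution 0.5 gave no value for it. The Spink1 share of 1.55% was 1.13% as a mean, 1.096% after thinning, 1.30% with further trypsinogen-like genes, 1.09% without the zymogen-led cluster and 0.930% in the acinar-like barcodes. The trypsinogen share of 40.5% was 41.8% with at least 2 Rbpjl UMIs, 37.5% as a mean, 42.4% after thinning, 44.3% without the richest barcode, 50.02% with further trypsinogen-like genes, 36.2% without the zymogen-led cluster and 33.9% in the acinar-like barcodes. The cause of these shifts was not tested. The other 16 alternatives of these results moved the value by less than its counting interval. Across filters and Rbpjl rules, Ctrc in Rbpjl-positive barcodes ran from 507 to 1242 CPM and Ctrb1 from 14005 to 25938 CPM. Prss1 was too rare for a pattern to be read, and at a median of 1008 UMIs per EYFP positive barcode a missing UMI of Spink1 or Ctrc does not show that a cell lacked it.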
